A study of Mus musculus with 12 samples.

Results

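Malat1, Neat1 and 5 RNAs that carry small nucleolar RNAs (snoRNAs) in their introns, Gas5, Snhg1, Snhg3, Snhg8 and Snhg12, were followed through 12 RNA-seq libraries of mouse CD8+ T cells. They are 7 of the 55536 genes with an Ensembl identifier in the count table and were found by symbol, and all 7 passed the filter on low counts that left 18817 genes for testing. Because they were chosen with values of these same libraries known, every difference between groups given for them is a description, without a p-value. OT-I cells carry a transgenic T cell receptor for the ovalbumin peptide SIINFEKL and, per the methods, come from mice deficient in Rag1 or Rag2, of both sexes and a range of ages. The Ag group (5 libraries) came from OT-I CD8+ T cells transferred into C57BL/6J mice that received SIINFEKL with rat IgG. The Ag+Costim group (5 libraries) received the same cells and peptide with agonist antibodies to the costimulatory receptors CD134 (OX40) and CD137 (4-1BB). Cells of both groups were sorted from spleen and lymph nodes by CD8, a congenic marker and the chains of the transgenic receptor. The labels give a harvest after 4 days, and the paper's methods give a shorter time. The Naive group (2 libraries) was purified from OT-I mice without any transfer, so it differs from the others in transfer and host as well as in antigen.

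Malat1 is an abundant nuclear RNA that gathers at nuclear speckles, the stores of splicing factors, and it ends without a poly(A) tail after RNase P cuts it upstream of a small tRNA-like RNA. Neat1 is the scaffold of paraspeckles. It exists as a short polyadenylated form and a long form that ends like Malat1, and the long form is the one needed to build the paraspeckle. Host RNAs such as Gas5 give their introns to snoRNAs, which guide the modification and processing of ribosomal RNA, while the spliced exons of several of them are short-lived because translation exposes them to nonsense-mediated decay. Many host RNAs start, like ribosomal protein mRNAs, with an unbroken run of C and T, the terminal oligopyrimidine tract, and this ties their translation and decay to growth signals.

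These starts are shown first because the tract is a feature that host RNAs are known for. The RefSeq sequence of 10 bases before and 20 bases from the start (GRCm38.p6, the assembly also called mm10) was available for 6 of the 7 genes, with 2 entries for Gas5. Capitals mark the unbroken run of C and T that holds the first transcribed base. Each marked run begins before the annotated start, so its transcribed part is shorter than the length given.
Gas5 (chr1:161035156-161035185, + strand): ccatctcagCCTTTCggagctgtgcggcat
Snhg12 (chr4:132308668-132308697, + strand): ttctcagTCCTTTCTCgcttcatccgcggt
Snhg8 (chr3:123508317-123508346, - strand): gttcagaagTCTCTTTggctgcgatccgcc
Snhg1 (chr19:8723477-8723506, + strand): tcttgtcggCCTCatttttccttgttcggg
Malat1 (chr19:5802653-5802682, - strand): ggctctgcgTCaggcattcaggcagcgaga
Snhg3 (chr4:132353667-132353696, - strand): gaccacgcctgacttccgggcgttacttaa
The run was 9 bases long in Snhg12, 7 in Snhg8, 6 in Gas5, 4 in Snhg1 and 2 in Malat1, and Snhg3 had none. The second Gas5 entry, whose start lies upstream at chr1:161034591-161034620, had none either. With a run of at least 4 bases as the cut, a length set after these sequences had been read, 4 of the 7 entries (57.1%) held one, against 4590 of 32851 entries of all genes (14%), 25 of 78 of cytosolic ribosomal protein genes (32.1%) and 9 of 40 of other noncoding snoRNA hosts (22.5%). In the authors' pooled splicing values the start of Gas5 that carried most of the signal was an upstream node, chr1:161035067-161035162 (fraction 0.917 in Ag and 0.909 in Ag+Costim). The node that begins at the RefSeq start of the printed sequence held 0.0603 and 0.0742. A node of 3 bases between them (chr1:161035163-161035165) held 0.0774 in both groups. Most entries of ribosomal protein genes, the class known for the tract, did not meet the cut. A match describes these letters only, with bases before the start counted, and says nothing of the start that was used in these cells.

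The 3′ ends are shown because they separate the forms that the annotation lists (mm10, GENCODE vM21). Capitals mark the polyadenylation hexamer AATAAA in Neat1-202 and Snhg1-211 and runs of A in Malat1-201 and Neat1-201.
Malat1-201, longest run of A (chr19:5795982-5796011, - strand): ttccctagctttAAAAAAAAAAAAgcaaaa
Neat1-201, end of the long form (chr19:5824708-5824737, - strand): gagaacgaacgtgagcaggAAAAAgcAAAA
Neat1-202, end of the short form (chr19:5842307-5842336, - strand): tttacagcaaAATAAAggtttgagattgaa
Snhg1-211, distal end (chr19:8726414-8726443, + strand): ttgttctagcAATAAAtgctctttatgcta
Snhg1-205, proximal end (chr19:8726316-8726345, + strand): taattctttgcaattgcaaatttaccttcc
Libraries were primed with oligo-dT, which pairs with runs of A. The run of 12 A in Malat1-201 begins at base 6674 of its 6983 bases and is encoded in the genome, as is the A-rich end of Neat1-201. The proximal end of Snhg1 holds neither AATAAA nor ATTAAA in its last 42 bases.

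Each library held between 24006053 and 49294934 counts, and the shallowest was Ag 4. These counts are rebuilt from coverage and are not numbers of reads. Ag+Costim 3 held 49294934 counts from 45971065 reads, and Naive 1 held 43491402 from 46800347, so counts per read differed between libraries. The 6 T cell and CD8 markers were present in every library, at a summed 9010 to 9660 CPM in Naive (counts scaled to a common library size), 7120 to 10800 in Ag and 3980 to 5460 in Ag+Costim, and Cd4 stayed between 0 and 2.44 CPM and was at 0 in 2 libraries. The 4 B cell markers summed to 27.2 to 29.7 CPM in Naive, 108 to 154 in Ag and 22.2 to 57.1 in Ag+Costim and the 5 myeloid markers to 22.5 to 143 CPM over all libraries. The 5 erythroid genes summed to 150 to 2070 CPM in Naive, 625 to 6370 in Ag and 14.5 to 222 in Ag+Costim, with the defining gene Alas2 at 0 in 1 Ag+Costim library. Mitochondrial RNA took 1.21 to 1.44% of counts in Naive, 0.693 to 2.28% in Ag and 0.559 to 0.823% in Ag+Costim. Ag 4 had the highest erythroid sum and the highest mitochondrial share of all 12 libraries. It was also the highest of the 5 Ag libraries for 7 of the 7 RNAs, whereas Ag+Costim 4 was the highest of its group for 1 of 7, Malat1. The 5 genes listed as ribosomal RNA-like, led by Lars2 and Gm26917, summed to 11400 to 11800 CPM in Naive, 390 to 1390 in Ag and 4230 to 5490 in Ag+Costim, and 4 of the 5 were tested. The 2 NK cell markers summed to 11.7 to 13.5, 6.45 to 14.5 and 1.22 to 3.3 CPM in the same order. The part of these markers in the results was not tested.

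Malat1 was the most abundant of the 7 in Naive and Ag cells and was 6.49-fold lower in Ag+Costim than with antigen alone. It lies on chr19:5795690-5802672 (- strand) as a lincRNA gene of 6983 exonic bases with 4 transcripts, ENSMUSG00000092341.3. Its level was 7533 and 7761 CPM in the Naive libraries, 5488, 4806, 5119, 9725 and 5134 CPM in Ag 1 to 5, and 848, 625, 737, 1485 and 970 CPM in Ag+Costim 1 to 5. All 5 Ag+Costim libraries lay below all other libraries, whereas Ag and Naive overlapped because Ag 4 exceeded both Naive libraries. Means ± SD were 7647 ± 161 (n = 2), 6054 ± 2066 (n = 5) and 933 ± 334 (n = 5) CPM, so the Ag+Costim mean was also 8.2-fold below the Naive mean. The fitted log2 fold change was -2.70 ± 0.252 (SE) for Ag+Costim against Ag, -3.04 ± 0.292 for Ag+Costim against Naive and -0.34 ± 0.307 for Ag against Naive. Malat1 took 0.858% of all counts in Naive and 0.0898% in Ag+Costim on average. Fewer cells of a type and less RNA per cell cannot be told apart in these bulk libraries. Without Ag 4 and Ag+Costim 4 the difference between Ag and Naive was -0.57 on the log2 scale and passed the threshold that it missed with all libraries.

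Neat1 gave another order, with both stimulated groups far below Naive and near each other. The gene (chr19:5824708-5845478, - strand, ENSMUSG00000092274.3, lincRNA, 4 transcripts) lies on the same chromosome as Malat1. Its level was 227 and 217 CPM in Naive, 34.6, 45.2, 34.2, 91.5 and 35.3 CPM in Ag 1 to 5, and 42.9, 62.9, 45.8, 52.7 and 58.9 CPM in Ag+Costim 1 to 5. Every stimulated library was below both Naive libraries, and the ranges of Ag and Ag+Costim overlapped. Means were 222 ± 7.14 (SD, n = 2), 48.2 ± 24.7 (n = 5) and 52.7 ± 8.44 CPM (n = 5), which puts Ag 4.62-fold and Ag+Costim 4.22-fold below Naive. The log2 fold change was -2.21 ± 0.303 (SE) for Ag against Naive, -2.08 ± 0.303 for Ag+Costim against Naive and 0.13 ± 0.246 for Ag+Costim against Ag. The last value rested on Ag 4. Without that library alone it was 0.49 and passed the threshold, and with upper-quartile scaling of all libraries it was -0.07 and missed it.

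In CPM, Gas5 was the only one of the 7 with every Ag library above both Naive libraries, and it was lowest in Ag+Costim. Gas5 RNA was named for its rise in growth-arrested cells, and its introns hold 10 annotated snoRNA entries, of which a pair named Snord80 shares 1 place. It is annotated at chr1:161034422-161038539 (+ strand, ENSMUSG00000053332.13, processed transcript). Its level was 223 and 213 CPM in Naive, 274, 237, 280, 331 and 262 CPM in Ag 1 to 5, and 150, 140, 124, 126 and 123 CPM in Ag+Costim 1 to 5. The 3 groups did not overlap in CPM, but Ag and Naive overlapped in other measures. In FPKM (scaled for length and depth) Ag 2 was at 349 and Naive 1 at 351. Of unscaled counts Gas5 took 0.0237% in Ag 2 and 0.025 and 0.0239% in Naive 1 and 2. Means were 218 ± 7.5 (SD, n = 2), 277 ± 34.7 (n = 5) and 133 ± 12.1 CPM (n = 5), so the Ag mean was 2.09-fold above the Ag+Costim mean. The log2 fold change was 0.34 ± 0.129 (SE) for Ag against Naive, -1.06 ± 0.0967 for Ag+Costim against Ag and -0.72 ± 0.123 for Ag+Costim against Naive. The small difference between Ag and Naive passed the threshold under 4 of 8 other settings and without 5 of the 12 libraries left out in turn, and it missed the threshold without Ag 4, Ag 1, Ag 3, either Naive library, Ag+Costim 3 or Ag+Costim 5, over a leave-one-out range of 0.27 to 0.39 on the log2 scale.

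**Figure D1:**
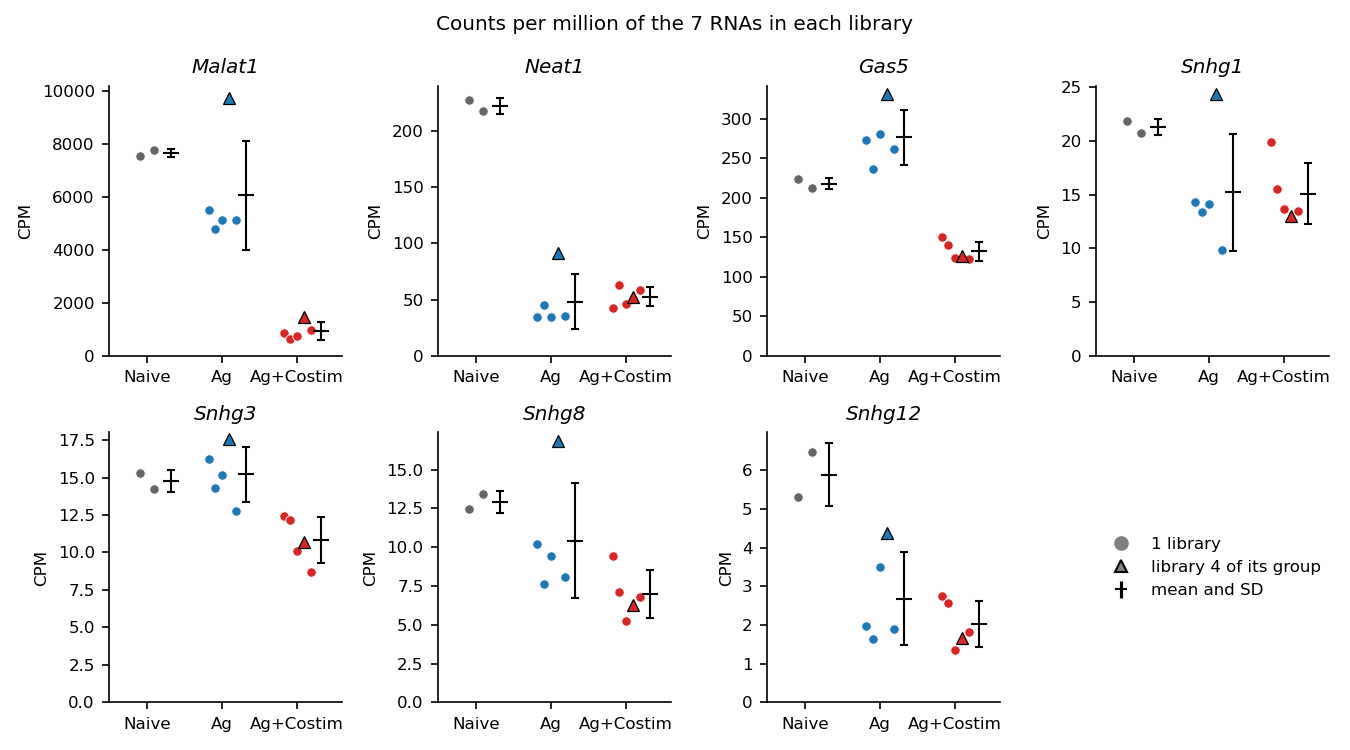
CPM of each of the 7 RNAs (y axis, linear from 0) in every Naive, Ag and Ag+Costim library (points, with library 4 of the Ag and Ag+Costim groups as a triangle), beside the group mean with its SD. Malat1 and Gas5 are lowest in all 5 Ag+Costim libraries, Neat1 is at 217 to 227 CPM in Naive and at most 91.5 CPM elsewhere, and the Ag 4 triangle is the highest Ag point in all 7 panels.

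The 4 Snhg genes were measured at far lower counts, from 63 to 1060 per library, and showed smaller differences. Snhg1, whose introns hold 8 annotated snoRNAs, is annotated at chr19:8723475-8726443 (+ strand, ENSMUSG00000108414.1). Its level was 21.8 and 20.7 CPM in Naive, 14.3, 13.3, 14.1, 24.4 and 9.86 CPM in Ag 1 to 5, and 19.8, 15.5, 13.7, 13 and 13.5 CPM in Ag+Costim 1 to 5. Ag and Ag+Costim had near-equal means of 15.2 ± 5.43 and 15.1 ± 2.82 CPM (SD, n = 5 each), with a log2 fold change of -0.01 ± 0.207 (SE), and all Ag+Costim libraries were below both Naive libraries (21.3 ± 0.778 CPM, n = 2). Without Ag 4, the difference of Ag from Naive went from -0.49 ± 0.266 to -0.72 on the log2 scale, and those of both stimulated groups from Naive then passed the threshold.

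Both Snhg3 and Snhg8 carry few snoRNAs, 2 and 1, and both had their lowest mean in Ag+Costim. Snhg3 (chr4:132348014-132353686, - strand, ENSMUSG00000085241.7) stood at 15.3 and 14.3 CPM in Naive, 16.3, 14.3, 15.2, 17.6 and 12.8 CPM in Ag 1 to 5 and 12.4, 12.2, 10.1, 10.7 and 8.72 CPM in Ag+Costim 1 to 5. No Ag+Costim library reached the lowest Ag or Naive library, and the gap between the nearest Ag and Ag+Costim libraries was small. The log2 fold change was -0.49 ± 0.128 (SE) for Ag+Costim against Ag, and it was -0.27 and missed the threshold when a trend of counts on gene length was removed. Against Naive the Ag+Costim value was -0.45 ± 0.165 (SE), and it missed the threshold without either Naive library, without Ag+Costim 3, 4 or 5 (-0.51 to -0.38), without the low-count filter (-0.43) and with the replicate number as a block (-0.26). In every comparison with Naive that block fit kept only libraries 1 and 2 of each group. Snhg8 (chr3:123507552-123508404, - strand, ENSMUSG00000104960.1) stood at 12.4 and 13.4 CPM in Naive, 10.2, 7.61, 9.41, 16.8 and 8.08 CPM in Ag 1 to 5 and 9.44, 7.09, 5.27, 6.26 and 6.8 CPM in Ag+Costim 1 to 5. Ag and Ag+Costim libraries overlapped, and Naive was the only group with all its libraries above all of Ag+Costim. Its log2 fold change for Ag+Costim against Ag, -0.58 ± 0.219 (SE), was -0.34 without Ag 4 and missed the threshold without that library. It was -0.31 without Ag 4 and Ag+Costim 4, -0.35 with the length trend removed, -0.57 without the low-count filter and -0.56 with the replicate block, and missed the threshold in each of these. It also missed the threshold without Ag 1, Ag 3 or any of Ag+Costim 2 to 5, so it passed without 5 of the 12 libraries in turn (-0.71 to -0.34 over all 12). The value for Ag+Costim against Naive, -0.89 ± 0.277 (SE), missed the threshold without either Naive library and with the replicate block (-0.65), and that for Ag against Naive, -0.31 ± 0.283, reached -0.55 and passed it without Ag 4.

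Snhg12 (chr4:132308623-132311024, + strand, ENSMUSG00000086290.9), with 5 annotated snoRNA entries of which a pair named Snora16a shares 1 place, was the least abundant of the 7 in CPM. Its level was 5.31 and 6.47 CPM in Naive, 1.97, 1.63, 3.5, 4.39 and 1.9 CPM in Ag 1 to 5, and 2.75, 2.57, 1.35, 1.65 and 1.82 CPM in Ag+Costim 1 to 5, on counts of 63 to 308 per library. Both stimulated groups were below both Naive libraries and overlapped each other. The log2 fold change was -1.14 ± 0.377 (SE) for Ag against Naive, -1.54 ± 0.373 for Ag+Costim against Naive and -0.39 ± 0.303 for Ag+Costim against Ag. The first missed the threshold without Ag 1 or either Naive library, and the last was -0.09 without Ag 4 and Ag+Costim 4.

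Over the 3 comparisons, which share their control libraries, the 7 RNAs passed an edgeR adjusted p below 0.05 as follows. For Ag against Naive 1 was higher and 2 were lower, where 24.2% of the 18817 tested genes were called higher and 22.5% lower (46.7% in all). These counts were 1 and 5 without Ag 4 and Ag+Costim 4, and 0 and 4 both with the length trend removed and with the replicate block. Against Naive that block fit used only libraries 1 and 2 of each group. For Ag+Costim against Ag none was higher and 4 were lower (Malat1, Gas5, Snhg3 and Snhg8), against 26.6% and 26.5% of all genes (53.1% in all). With the length trend removed 2 were lower, with the replicate block 3, and without Ag 4 and Ag+Costim 4 1 was higher and 3 were lower. For Ag+Costim against Naive 6 were lower, all but Snhg1, against 26.9% higher and 25.4% lower (52.3% in all), and with the replicate block 4 were lower, without Snhg3 and Snhg8. Counted by libraries that did not overlap in CPM, 3 of 7 were lower in Ag+Costim compared with Ag (18.5% of all genes), 7 of 7 were lower in Ag+Costim than in Naive (34.2%), and 1 was higher (27.4%) and 2 were lower (29.2%) in Ag than in Naive. The members' median log2 fold changes were -0.34, -0.49 and -0.89 in this order of comparisons and those of all genes 0.02, -0.05 and -0.02. These members were picked on such values, so nothing is read from the counts. The split over all genes depended on scaling. Ag+Costim against Ag gave 5006 higher and 4979 lower with TMM scaling but 4056 and 6338 with upper-quartile scaling, under which the median of all genes was -0.25 on the log2 scale, and for Ag+Costim against Naive that median was -0.18. With limma on FPKM the split was 3606 higher and 5804 lower for Ag against Naive (4559 and 4233 by edgeR) and 3987 and 6718 for Ag+Costim against Naive (5066 and 4778). Under upper-quartile scaling Malat1 was at -2.90 and Gas5 at -1.26 for Ag+Costim against Ag, both below that median.

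**Figure D2:**
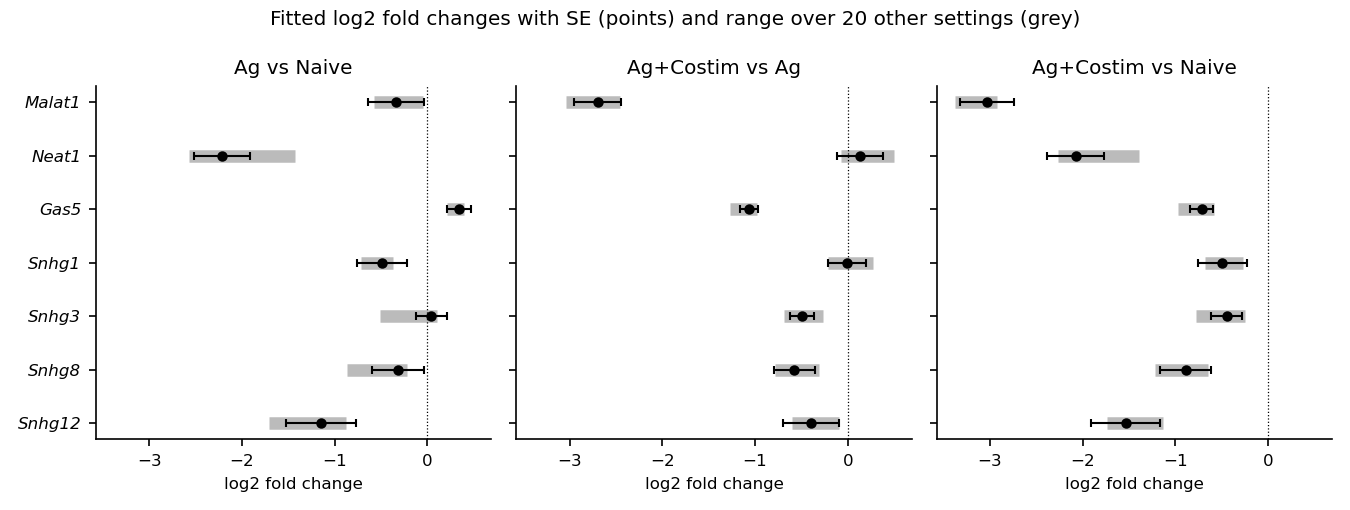
Fitted log2 fold change (x axis) of the 7 RNAs in the 3 comparisons, with points and bars for the edgeR estimate and its SE and grey bands for the range over 20 other settings (8 processing choices and 12 libraries left out in turn). For Ag+Costim against Ag the band of Malat1 runs from -3.04 to -2.46 and that of Gas5 from -1.27 to -0.98, while the bands of Neat1 and Snhg1 cross 0.

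Levels can be ranked between these RNAs only per length, in FPKM (fragments scaled for transcript length and library depth). In Naive cells Malat1 had a mean level of 1208 ± 31.8 FPKM (SD, n = 2) and Gas5 340 ± 16.6, followed by Snhg3 at 36.5, Snhg8 at 28.4, Snhg1 at 27.4, Neat1 at 16.6 and Snhg12 at 6.29 FPKM. Only Snhg8 and Snhg1 overlapped their neighbour in that order. In Ag cells the order was Malat1 (860 ± 332 FPKM, n = 5), Gas5 (420 ± 52), Snhg3 (33.6), Snhg8 (20.8), Snhg1 (19), Snhg12 (3.06) and Neat1 (2.64). There Snhg3, Snhg8 and Snhg1 overlapped in sequence, as did Snhg12 and Neat1. In Ag+Costim cells Gas5 (173 ± 15.8 FPKM, n = 5) stood above Malat1 (127 ± 45.7) but their libraries overlapped, so the first place could not be assigned. Snhg3 (23.4), Snhg1 (17.7) and Snhg8 (13.6) came next, with Snhg1 overlapping both and all Snhg3 libraries above all Snhg8 libraries, and Neat1 (2.66) and Snhg12 (2.31) came last and overlapped. Per length Neat1 was thus 1 of the 2 lowest in both stimulated groups, although its counts, summed over 20771 exonic bases, were higher than those of each Snhg gene. Its FPKM depends on how counts are divided between its long and short forms, which these files do not settle. Ag 1 and Ag 5 had 34.6 and 35.3 CPM of Neat1 but 3.19 and 1.72 FPKM, so this rank is uncertain.

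The transcripts behind these sums differed between genes. Counts per transcript length, as a share of the gene, were computed in each library from the authors' transcript counts. Malat1 was assigned to the unspliced Malat1-201 at 100% in every group. For Neat1 the long form Neat1-201 took 67.6 ± 9.67% in Naive (SD, n = 2), 87.2 ± 24.7% in Ag and 91.5 ± 15.7% in Ag+Costim (n = 5 each). The short form Neat1-202 was listed at 18.6 and 35.5% in the Naive libraries, at 0 in 4 of 5 Ag libraries and at 0 in 4 of 5 Ag+Costim libraries, with 56.9% in Ag 1 and 36.4% in Ag+Costim 4. The same libraries gave another picture in the authors' node usage, which was pooled over each group and has no replicates: the short end (chr19:5842307-5843680) had a fraction of 0.971 in Ag and 0.984 in Ag+Costim and the long end (chr19:5824708-5842306) 0.0293 and 0.0159. The share of each Neat1 form therefore depends on the method and cannot be stated from these files.

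Gas5 and Snhg1 were split over many transcripts that the annotation types as retained intron, 20 of 25 and 14 of 18. For Gas5 these took 60.4 and 63.3% in Naive, 54.6, 54.7, 43.9, 66.3 and 45% in Ag 1 to 5 and 66.3, 72.4, 65.7, 58 and 60% in Ag+Costim 1 to 5. Only Ag 4 reached the range of Ag+Costim, whose mean was 64.5 ± 5.69% against 52.9 ± 9.07% in Ag (SD, n = 5 each). The spliced Gas5-224 with 12 exons held 33.7% in Naive, 42.2 ± 8.41% in Ag and 29.8 ± 4.07% in Ag+Costim. For Snhg1 the retained-intron share was 38.3 ± 7.92%, 31.8 ± 5.09% and 39.9 ± 6.23%, with overlapping ranges. One of its forms, Snhg1-206, was named after its values were seen. It took 11.8 to 18.2% in Ag+Costim (46 to 65 counts) and 1.79 to 8.33% in Ag (7 to 33 counts), without overlap, and 4.4 and 8.24% in Naive. Shares of this kind come from short reads divided among overlapping transcripts, and the annotation, not the reads, defines the retained introns.

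Transcript shares of Snhg3 and Snhg12 also varied between libraries. Snhg3-204 held 90.9 and 90.7% of Snhg3 in Naive, 79.1 to 92.1% in Ag and 52.4 to 84.6% in Ag+Costim, and Snhg3-205 was at 0 in both Naive libraries, in 4 of 5 Ag libraries and in 2 of 5 Ag+Costim libraries but reached 25.2% in Ag+Costim 3. Snhg8-201 was even across the groups, at 79.4, 79.5 and 81% on average. Snhg12-206, with 5 exons, ranged from 7.92 to 66.2% within Ag and from 0 to 69.1% within Ag+Costim, so no difference between groups can be read at its depth. The snoRNAs themselves were almost unmeasured. The annotated snoRNA genes inside the 7 RNAs summed to 25 to 36 counts per library.

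Node usage, the share of transcripts that include a stretch (Psi), was listed by the authors for 60 nodes in 6 of the 7 genes, with Snhg3 holding none. It compares Ag with Ag+Costim as 1 pooled value per group, so no spread between replicates is available. The authors' own probabilities for these differences were not used. A total of 6 nodes differed by at least 0.05, and 4 of them were in Snhg1. The share over the nodes of all genes was not counted, so nothing is read from this count. The proximal and distal end nodes of Snhg1 mirror each other (differences of 0.237 and -0.237) and are not separate differences. The proximal end node (chr19:8726239-8726345) had a Psi of 0.101 in Ag and 0.337 in Ag+Costim, and the distal end node (chr19:8726346-8726443), whose sequence holds the AATAAA printed above, 0.9 and 0.662. The proximal end is the one without either hexamer. An alternative donor of Snhg1 (chr19:8725827-8725924) had 0.173 and 0.121 and an alternative acceptor (chr19:8724377-8724402) 0.0888 and 0.139. In Gas5 the cassette exon at chr1:161037124-161037164 had 0.515 in Ag and 0.431 in Ag+Costim, and the other cassette exons were included at 0.874 or more in both groups. In Snhg12 a retained intron (chr4:132309904-132310150) had 0.26 and 0.18. Malat1 nodes differed by at most 0.004, Snhg8 nodes by at most 0.032 and Neat1 nodes by at most 0.041.

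**Figure D3:**
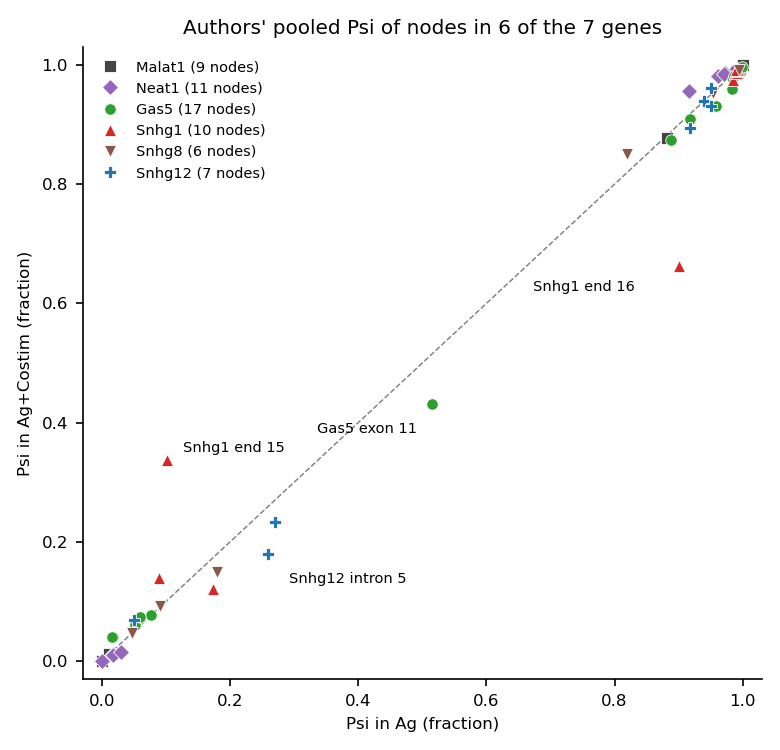
Authors' pooled Psi in Ag+Costim (y axis, fraction) against Ag (x axis, fraction) for the 60 nodes of 6 genes, 1 point per node and 1 symbol per gene, with the dashed line at equal usage. The 2 end nodes of Snhg1, at 0.101 and 0.337 and at 0.9 and 0.662, lie farthest from the line.

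Other RNAs of the same kinds were counted to place these values. Noncoding genes other than the 7 that hold an annotated snoRNA on their own strand numbered 63, of which 26 were tested. For Ag+Costim against Ag, 4 were higher and 8 lower with a median log2 fold change of -0.17, beside 26.6% and 26.5% of all genes and a median of -0.05. Without Ag 4 and Ag+Costim 4 the split was 4 and 5 and the median 0.01. It was 5 and 6 with the length trend removed and 4 and 9 with upper-quartile scaling (median -0.37). The split thus depends on the processing and the libraries, and nothing is read from it. Zfas1, another short-lived host, fell from 31.8 ± 4.36 to 16.8 ± 2.05 CPM (SD, n = 5 each, log2 fold change -0.92 ± 0.122 SE, edgeR adjusted p = 2.56e-05), and Snhg17 fell by 0.51 on the log2 scale (adjusted p = 0.0184). AI506816 rose from 73.8 ± 4.92 to 257 ± 31.8 CPM (log2 fold change 1.80 ± 0.096 SE, adjusted p = 1.56e-08), and Cct6a, a chaperonin subunit gene whose deposited identifier the annotation lists as a processed transcript, by 1.10 (adjusted p = 1.18e-05). Snhg5, Snhg6 and Snhg15, which were picked for mention after their values were seen, did not pass, with log2 fold changes of -0.04, 0.17 and -0.09. Against Naive, 3 of the 26 were higher and 8 lower in Ag, beside 24.2% and 22.5% of all genes. With the length trend removed these were 2 and 11, and with the replicate block (libraries 1 and 2 of each group) 5 and 8 of 25. In Ag+Costim against Naive 3 were higher and 10 lower, beside 26.9% and 25.4% of all genes. Snhg15 fell by 1.36 and Snhg17 by 1.22 on the log2 scale in Ag (adjusted p = 1.28e-04 and 3.05e-04), and in Ag+Costim against Naive Snhg15 fell by 1.46 and Snhg17 fell by 1.74.

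Protein-coding genes that host snoRNAs were counted next for Ag+Costim against Ag. Of 211 tested, 91 were higher and 42 lower with costimulation (median log2 fold change 0.27), beside 26.6% and 26.5% of all genes, and with upper-quartile scaling 75 were higher and 58 lower (median 0.07). They were led among well measured genes by Prrc2a (log2 fold change 3.24), the DNA polymerase epsilon gene Pole (3.01) and the translation initiation factor gene Eif4g1 (2.71), with edgeR adjusted p of 2.38e-07, 4.18e-07 and 6.22e-08. Genes for snoRNP proteins, which bind the snoRNAs and carry out the modification, gave 15 higher and 1 lower of 19 (median 0.63). Among them Nop58 rose by 1.98, Gar1 by 1.96 and Nolc1 by 1.56 on the log2 scale (adjusted p = 3.26e-08, 3.34e-07 and 1.56e-06). Cytosolic ribosomal protein genes, known for the oligopyrimidine start, gave 1 higher and 45 lower of 84 (median -0.33). Rps27 fell by 1.43 (573 ± 101 to 213 ± 39.8 CPM, adjusted p = 2.66e-06), and Rps27rt fell by 1.47, a near-identical copy of Rps27, so that the reads of the pair cannot be told apart. With the trend on gene length removed the ribosomal split was 10 higher and 32 lower. For Ag against Naive the ribosomal genes gave 17 higher and 0 lower by edgeR but 1 higher and 20 lower with that trend removed, so their direction there depends on the processing. For Ag against Naive the snoRNP genes gave 5 higher and 7 lower and the protein-coding hosts 44 and 68 of 211. Of all genes 24.2% were called higher and 22.5% lower in that comparison. For Ag+Costim against Naive the ribosomal genes gave 10 higher and 23 lower, the snoRNP genes 12 and 1 and the protein-coding hosts 75 and 46, beside 26.9% and 25.4% of all genes. With the length trend removed the ribosomal genes there gave 3 and 43. The protein-coding hosts gave 68 and 61 with upper-quartile scaling and 58 and 66 by limma on FPKM, with a median of -0.04.

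Partners of the nuclear RNAs were counted in the same way. Of 13 genes for paraspeckle proteins and factors that set the Neat1 end, 10 were higher and 0 lower with costimulation than with antigen alone (median log2 fold change 0.82), beside 26.6% and 26.5% of all genes. Dazap1 rose by 2.21 and Rbm14 by 1.79 on the log2 scale (edgeR adjusted p = 1.2e-08 and 1.56e-08), where Neat1 itself differed by 0.13 ± 0.246 (SE). For Ag against Naive, 5 of these 13 genes were lower and 4 higher, beside 22.5% and 24.2% of all genes. Without Ag 4 and Ag+Costim 4 the counts were 8 and 4. Dazap1 was among the lower, at 30.2 ± 4.55 CPM in Ag and 59.5 ± 5.55 CPM in Naive (log2 fold change -0.98, adjusted p = 6.44e-05). Of 11 nuclear speckle genes, 5 were higher and 3 lower for Ag+Costim against Ag (7 and 3 without Ag 4 and Ag+Costim 4). The scaffold gene Son fell from 550 ± 76.5 to 214 ± 11.4 CPM (log2 fold change -1.36 ± 0.0955 SE, adjusted p = 1.12e-07), while the splicing factor gene Srsf1 rose by 1.74 and Acin1 by 0.84 (adjusted p = 1.8e-06 and 8.35e-05). The speckle median was 0.13 with TMM scaling and -0.08 with upper-quartile scaling. Against Naive, 2 speckle genes were higher and 5 lower in Ag (24.2% and 22.5% of all genes), and 5 higher and 4 lower in Ag+Costim (26.9% and 25.4%). With the length trend removed the split for Ag was 4 higher and 2 lower and its median went from -0.41 to 0.03, so its direction depends on the processing.

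Genes for RNase P, which cuts the ends of Malat1 and long Neat1, for the tRNase Z gene Elac2 and for Mettl16, which binds the Malat1 end, gave 4 higher and 3 lower of 13 for Ag+Costim against Ag (30.8% and 23.1%, beside 26.6% and 26.5% of all genes). This split was 4 and 5 with upper-quartile scaling and 6 and 3 without Ag 4 and Ag+Costim 4, so nothing is read from it. Pop1 rose by 1.25, Elac2 by 0.94 and Mettl16 by 0.89 on the log2 scale (edgeR adjusted p = 7.38e-05, 1.99e-04 and 2.97e-05). Nonsense-mediated decay genes gave 5 higher and 3 lower of 10 (50% and 30%, median log2 fold change 0.01), with Upf1, the helicase of the pathway, up by 2.29 and Smg5 by 1.34 (adjusted p = 1.14e-06 and 2.33e-06). The decay split was 4 higher and 5 lower both with upper-quartile scaling (median -0.19) and with the length trend removed (median -0.08), so its direction depends on the processing. In Ag against Naive 7 of these 10 decay genes were lower and 2 higher, beside 22.5% and 24.2% of all genes. Upf1 was among the lower (-1.47, edgeR adjusted p = 3.85e-04). Of 10 other long noncoding RNAs tested, 3 were higher and 4 lower for Ag+Costim against Ag (30% and 40%, beside 26.6% and 26.5% of all genes). Mir142hg fell by 1.74 and Kcnq1ot1 by 1.15, and Tug1 rose by 1.19 to 54.5 ± 9.26 CPM, close to its Naive level of 55.2 ± 4.37 CPM (adjusted p = 1.39e-04, 4.09e-04 and 3.44e-06).

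**Figure D4:**
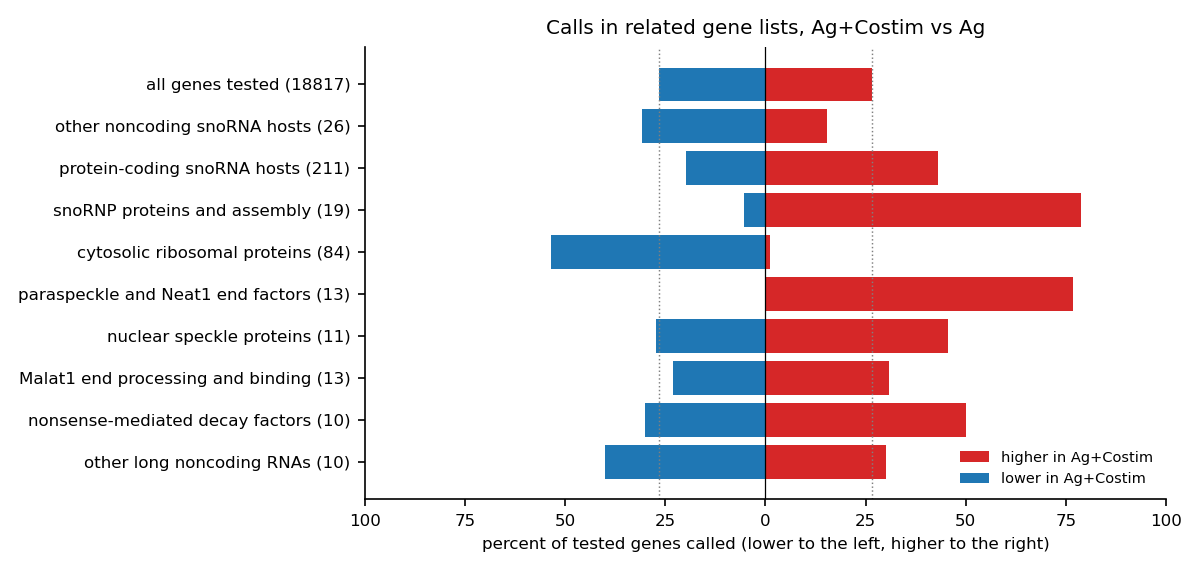
Percent of tested genes called lower (left of 0) and higher (right of 0) for Ag+Costim against Ag in 9 gene lists and all genes, with the number tested in parentheses and dotted lines at the shares over all genes (26.5% and 26.6%). The snoRNP list has 15 of 19 genes higher, the paraspeckle list 10 of 13 higher and the ribosomal protein list 45 of 84 lower.

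Genes beside the 7 RNAs were described by their distance and strand. Of 45 annotated genes within 5000 bases, 11 were tested, and in Ag+Costim against Ag 3 were higher and 2 lower (27.3% and 18.2%, beside 26.6% and 26.5% of all genes). Rcc1, the exchange factor of the GTPase Ran, overlaps Snhg3 on the same strand. It rose from 41 ± 5.03 to 210 ± 38.8 CPM (log2 fold change 2.35 ± 0.138 SE, edgeR adjusted p = 2.89e-08) where Snhg3 was lower, and reads in the shared stretch could not be told apart by gene. Prss12, 955 bases from Snhg8 on the other strand, fell from 23.5 ± 4.04 to 1.05 ± 0.83 CPM (log2 fold change -4.49, adjusted p = 2.05e-06). Phactr4 near Snhg3 rose by 0.91 and Trnau1ap near Snhg12 fell by 0.55 (adjusted p = 0.0116 and 1.63e-04). Slc3a2, the heavy chain of amino acid transporters, starts 106 bases from Snhg1 on the other strand and did not pass (162 ± 7.5 and 163 ± 14.1 CPM, adjusted p = 0.903). Frmd8, 4224 bases from Neat1, was at 414 ± 8.99 CPM in Naive, 354 ± 59.3 in Ag and 340 ± 30.7 in Ag+Costim and passed in none of the 3 comparisons (adjusted p = 0.224, 0.701 and 0.12), while Neat1 was over 4-fold lower in both stimulated groups. Zbtb37, which overlaps Gas5 on the opposite strand, fell by 0.83 in Ag against Naive (adjusted p = 0.0205), and since the counting is not stated to use strand its reads and those of Gas5 are uncertain in the overlap. Gm17300, opposite to Snhg3, did not pass in any comparison, and Frmd8os and Gm37362 were below 0.32 CPM in every library.

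**Figure D5:**
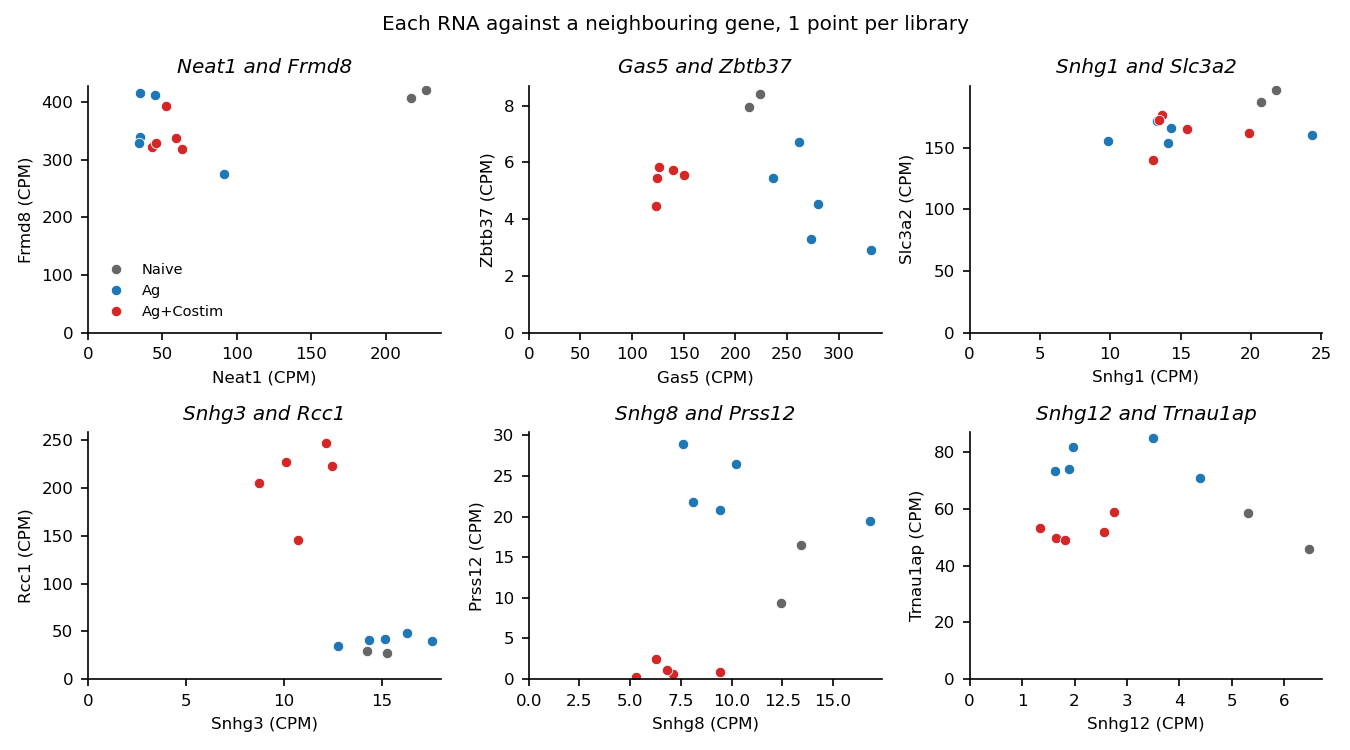
CPM of a neighbouring gene (y axis) against CPM of the RNA beside it (x axis), 1 point per library, coloured by group, both axes linear from 0. Rcc1 is at 146 to 247 CPM in Ag+Costim and at most 48.4 CPM elsewhere while Snhg3 spans 8.72 to 17.6 CPM, and Frmd8 spans 275 to 420 CPM while Neat1 separates Naive from the rest.

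Among themselves the 7 RNAs followed more than 1 pattern over the 12 libraries. The Pearson correlation of log2 CPM was 0.90 for Malat1 with Gas5, 0.90 for Gas5 with Snhg3, 0.86 for Snhg8 with Snhg12 and 0.77 for Neat1 with Snhg12, but 0.37 for Malat1 with Neat1 and 0.07 for Gas5 with Neat1. Without Ag 4 and Ag+Costim 4 (10 libraries) these were 0.90, 0.87, 0.86, 0.78, 0.32 and -0.05. The points share 3 groups and their library scaling, so these values describe group patterns and carry no p-value. By the same measure, genes most like Malat1 were CT485616.1, E230032D23Rik and the zinc finger gene Zfp950 (0.993, 0.993 and 0.992), and Zfp950 stood at 34.7 ± 4.81, 33.4 ± 5.05 and 12.6 ± 1.99 CPM in Naive, Ag and Ag+Costim. Most like Neat1 were Ccdc88c, Pag1 and Man2a2 (0.985, 0.984 and 0.982), and Ccdc88c stood at 156 ± 3.34, 52.8 ± 17.4 and 57.1 ± 7.11 CPM. Most like Gas5 were Ncor1, Zfp938 and Son (0.98, 0.978 and 0.977). Snhg1 had Wdr89, Prpf4b and B230219D22Rik (0.915, 0.892 and 0.883), Snhg3 had Inpp5f, BC003965 and Aff3 (0.963, 0.936 and 0.928), Snhg8 had Usp34, Rps24 and Gm10443 (0.957, 0.94 and 0.931) and Snhg12 had Zc3h13, Snhg17 and Ndufaf4 (0.926, 0.924 and 0.904). Snhg17, itself a host RNA, stood at 38.2 ± 0.826, 16.4 ± 3.61 and 11.5 ± 2.35 CPM.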

How the data were processed

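RNA from sorted CD8+ T cells was converted to cDNA with an oligo-dT primed kit and sequenced as single 100-base reads. Per the labels and methods, the authors aligned reads to mm10 with HISAT2 2.1.0 and SAMtools 1.9 and derived gene and transcript counts and FPKM with StringTie 2.1.0, whose counts are rebuilt from coverage. The deposited counts are not normalized, the deposited FPKM are scaled for length and depth, and the deposited Psi values are fractions that the authors pooled per group with Whippet. The annotation and strand setting are not given in the sources used here, and transcript identifiers matched GENCODE vM21. The percent of reads aligned (72.3 to 76.5%) was deposited with the sequencing lane sheet, and its aligner is not named. Columns of the authors' own comparisons (Psi differences and probabilities) were not used.

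The 26345 entries without an Ensembl identifier (0.0508 to 0.121% of counts) were left out. edgeR 4.0.16 (R 4.3.3) was fitted to all 12 libraries with TMM scaling, filterByExpr and robust quasi-likelihood tests, with Benjamini-Hochberg adjustment over 18817 genes and a threshold of 0.05. The study itself used DESeq2 1.30.1 in R 4.0.5. DESeq2 1.42.0, limma 3.58.1 on log2(FPKM + 1), upper-quartile scaling, no low-count filter, removal of a length trend, the 2 groups alone, a replicate block and each library left out were tried. The block fit kept only replicate numbers present in both groups, so comparisons with Naive used libraries 1 and 2 of each group. Tables were handled in Python 3.11.15 with pandas 2.3.3, numpy 2.4.6 and matplotlib 3.10.9. Fits were tested on simulated data for Ag+Costim against Ag. Of 191 genes given a log2 fold change of 1, 102 were called (53.4%), with 2 false calls. A gene that missed the threshold may therefore still differ. CPM are counts scaled by TMM library size.

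The 7 RNAs and the gene lists were chosen with earlier results of these data known. Named genes were, per list, the 3 called genes with the largest absolute log2 fold change for Ag+Costim against Ag at a mean log2 CPM above 3, all tested genes within 5000 bases of one of the 7, and the 3 genes best correlated with each. Some genes that this rule names are not reported here, and Snhg5, Snhg6, Snhg15 and the values of other list genes against Naive were added after values were seen. Libraries are separate samples by their labels, and p-values measure the spread between these samples. Counts per library ranged from 24006053 to 49294934, and Snhg12, with the fewest counts of the 7, is the least precise.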

Additional observations from a re-analysis of the deposited data

Results flagged for a closer look

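Among 14 groups of 5 libraries, 1 library, Ag 4, lay farther from the rest of its group than a Dixon test at 95% allows for 3 of the 7 RNAs, where chance alone gives about 1 in 20 groups. Malat1 was at 9725 CPM in Ag 4 and at 4806 to 5488 CPM in the other 4 Ag libraries. Neat1 was at 91.53 CPM in Ag 4 and at 34.25 to 45.18 CPM in the others. Snhg8 was at 16.81 CPM in Ag 4 and at 7.609 to 10.22 CPM in the others. Ag 4 held 24006053 counts, 6370 CPM of erythroid genes and 2.28% mitochondrial counts, and the part of these in the values was not tested.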

How the results depend on the processing

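The lower level of Malat1 and Gas5 in Ag+Costim against both other groups, of Neat1 in both stimulated groups against Naive and of Snhg12 in Ag+Costim against Naive kept their direction and their side of the threshold under all 8 other settings and without each of the 12 libraries. These RNAs were picked on values of the same libraries, so this describes the processing and is no support for the differences. Without each library in turn, the genes called ranged from 5713 to 9569 for Ag against Naive, from 9194 to 10190 for Ag+Costim against Ag and from 7084 to 10530 for Ag+Costim against Naive, and other noncoding hosts called from 6 to 12, 10 to 13 and 9 to 13. The lowest, 5713 genes, came without Naive 2, and 6 hosts came without either Naive library. Whether the replicate numbers pair the samples cannot be told from the counts. Same-numbered Ag and Ag+Costim libraries had weak positive correlations of 0.0159 to 0.0951, and 3 of 5 Ag libraries were closest to their own number. A fit with the replicate number as a block called 8632, 9353 and 9480 genes and 13, 11 and 13 hosts in these comparisons. Against Naive it used only libraries 1 and 2 of each group, so its changes there mix blocking with the loss of the other stimulated libraries. Of the members' fitted log2 fold changes, 20 of 168 under other settings moved by more than 1 SD between replicates and none did without a single library, and the cause was not tested. Transcript shares taken from counts as deposited, which favour long transcripts by construction, gave Neat1-201 94% in Naive, Gas5 retained-intron forms 73, 63.4 and 75.1% in Naive, Ag and Ag+Costim, those of Snhg1 54.2, 46.3 and 54.1%, that of Snhg8 23, 19.1 and 14.9%, and Snhg3-204 89.2% in Naive. Naive has 2 libraries, Psi has no replicates, and Snhg12 rests on 63 to 308 counts. A run without Ag 4 and Ag+Costim 4 was chosen after seeing the data.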
